A study of Mus musculus with 10 samples.

Results

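Interferon-stimulated genes are the genes that a cell turns on when interferon binds its surface, and 43 of them were followed here in mouse macrophages carrying a human WDFY3 knock-in. The 43 symbols were listed by name and matched to gene identifiers through the identifier and symbol columns of the deposited log2 table. All 43 matched among the 54307 genes of the count table, and 42 had enough counts to be tested, among 12411 tested genes. The remaining member, the chemokine gene Cxcl9, had 0 to 6 counts per library. The tested group was labelled hWDFY3KI/KI with overexpression of human WDFY3, and the other group was labelled wild-type control. Each group holds 5 libraries from male mice 6 to 8 weeks old, and each library is taken as its own mouse. The cells of both groups were bone-marrow-derived macrophages (BMDMs) grown in medium conditioned by L-929 fibroblasts and harvested at day 7, and no library is labelled as treated with interferon. WDFY3, also called ALFY, is a scaffold protein of selective autophagy, and the comparison asks what its overexpression does to the macrophage transcriptome. The sources used here name neither the promoter that drives the human gene nor the mouse strain.

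Type I interferons signal through IFNAR1 and IFNAR2, and the kinases JAK1 and TYK2 then activate transcription factors. With IRF9, STAT2 forms part of the complex ISGF3, which binds the interferon-stimulated response element (ISRE) in the promoters of target genes. Interferon gamma signals through its own receptor to genes with a gamma-activated site (GAS). In resting macrophages a low, tonic interferon signal is known to keep many of these genes expressed, and their products cut, bind or trap viral RNA, sense it, or attack vacuoles that hold pathogens.

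The knock-in libraries held 15215443 to 22891773 estimated counts and the control libraries 14617652 to 36387405. Levels are given as CPM (counts per 1000000 counts, after scaling to a common library size), with means ± SD over the 5 libraries of a group, and differences as fitted log2 fold changes of knock-in over control ± SE. All 9 macrophage markers were detected in every library, and 0 of the 9 passed after adjustment in edgeR (0.0806% of all tested genes). Csf1r, the receptor that macrophages need to live, was at 1572 to 1637 CPM in the knock-in and 1339 to 1862 CPM in the control libraries. Adgre1 was lower in every knock-in library, at 808 to 847 CPM, than in any control library, at 860 to 1042 CPM. Such separation was found for 1.32% of all tested genes, and the groups overlapped for each of the other macrophage markers. Mouse Wdfy3 was at 119.7 ± 6.19 CPM in the knock-in and 109.8 ± 9.82 CPM in the control libraries, and the difference did not pass the test (log2 fold change 0.13 ± 0.066, adjusted p = 0.811). The human transcript was not measured here, so this checks neither the genotype nor the overexpression. Markers of stromal cells stood apart in knock-in 4 and in controls 1 and 4, where the 12 markers summed to 113, 189 and 188 CPM, while knock-in 1, 2, 3 and 5 had 2.53 to 27.0 CPM and controls 2, 3 and 5 had 7.61 to 15.2 CPM. Results that rest on these 3 libraries are given with and without them. In RNA from whole cultures, fewer cells of a type and less RNA per cell cannot be told apart.

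Many of the members carry an ISRE near their start. RefSeq (GRCm38.p6) gave a promoter window, from 250 bases before to 50 after the start, for 34 of the 43 members. The ISRE core was searched as GAAA, any 2 bases and GAAA, on both strands, and 21 of the 34 members (61.8%) held it, against 3.99% of 27025 genes with a window. The GAS was searched as TTCNNNGAA, which reads the same on both strands, and 11 of 34 members (32.4%) held it, against 9.55% of all genes. Of 8 genes for interferon receptors and their kinases, 0 held the ISRE core. These matches describe the letters of the windows and were not tested as binding sites. To show what the motif looks like, stretches of 80 bases upstream of the RefSeq start are printed for 6 members described in detail, chosen by the number of matches lying wholly upstream and then by their nearness to the start. Matches after the start, such as 2 in Ifitm3 and 1 in Ddx58, are not shown. Matched letters are in capitals, overlapping matches run together, and TTTC, any 2 bases and TTTC is the same motif on the other strand.
Isg15 (chr4:156200842-156200921, minus strand): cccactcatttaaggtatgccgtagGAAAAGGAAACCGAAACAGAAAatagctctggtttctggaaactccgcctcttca
Bst2 (chr8:71537548-71537627, minus strand): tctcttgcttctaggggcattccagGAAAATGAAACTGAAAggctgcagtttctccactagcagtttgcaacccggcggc
Irgm1 (chr11:48871421-48871500, minus strand): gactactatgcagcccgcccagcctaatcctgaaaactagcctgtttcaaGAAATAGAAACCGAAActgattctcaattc
Oas1a (chr5:120907526-120907605, minus strand): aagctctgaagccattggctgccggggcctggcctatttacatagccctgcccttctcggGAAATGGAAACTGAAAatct
Gbp2 (chr3:142620579-142620658, plus strand): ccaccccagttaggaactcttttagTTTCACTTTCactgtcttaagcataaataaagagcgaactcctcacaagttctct
Rsad2 (chr12:26456518-26456597, minus strand): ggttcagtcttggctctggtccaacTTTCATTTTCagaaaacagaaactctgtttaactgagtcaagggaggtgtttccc
Isg15 held 3 overlapping copies in a row, Bst2, Irgm1 and Oas1a 2 overlapping copies, and Gbp2 and Rsad2 1 copy on the other strand. In GENCODE M21 the Gbp2 gene begins within its printed stretch, and the Irgm1 gene begins upstream of its own.

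No single interferon-stimulated gene could be told apart between the hWDFY3 knock-in and control macrophages with this number of mice. Of the 42 tested members, 0 had an adjusted p below 0.05 by the quasi-likelihood F test of edgeR, where 0.0806% of all tested genes passed. An unadjusted p under 0.05 was found for 1 member, Gbp2, against 6.21% of all tested genes. DESeq2 called 0 of the 43 members, against 0.268% of the genes it adjusted. Its unadjusted p was under 0.05 for 1 of the 43 members, against 3.75% of the genes it fitted. The knock-in and control libraries did not separate for any member (0 of 42), against 1.32% of all tested genes. The fitted value was above 0 for 17 members and below 0 for 25, and 48.3% of all tested genes were above 0. The median log2 fold change was -0.025 over the members and -0.0046 over all tested genes, and the members ran from -0.33 for Oasl1 to 0.29 for Iigp1.

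**Figure D1:**
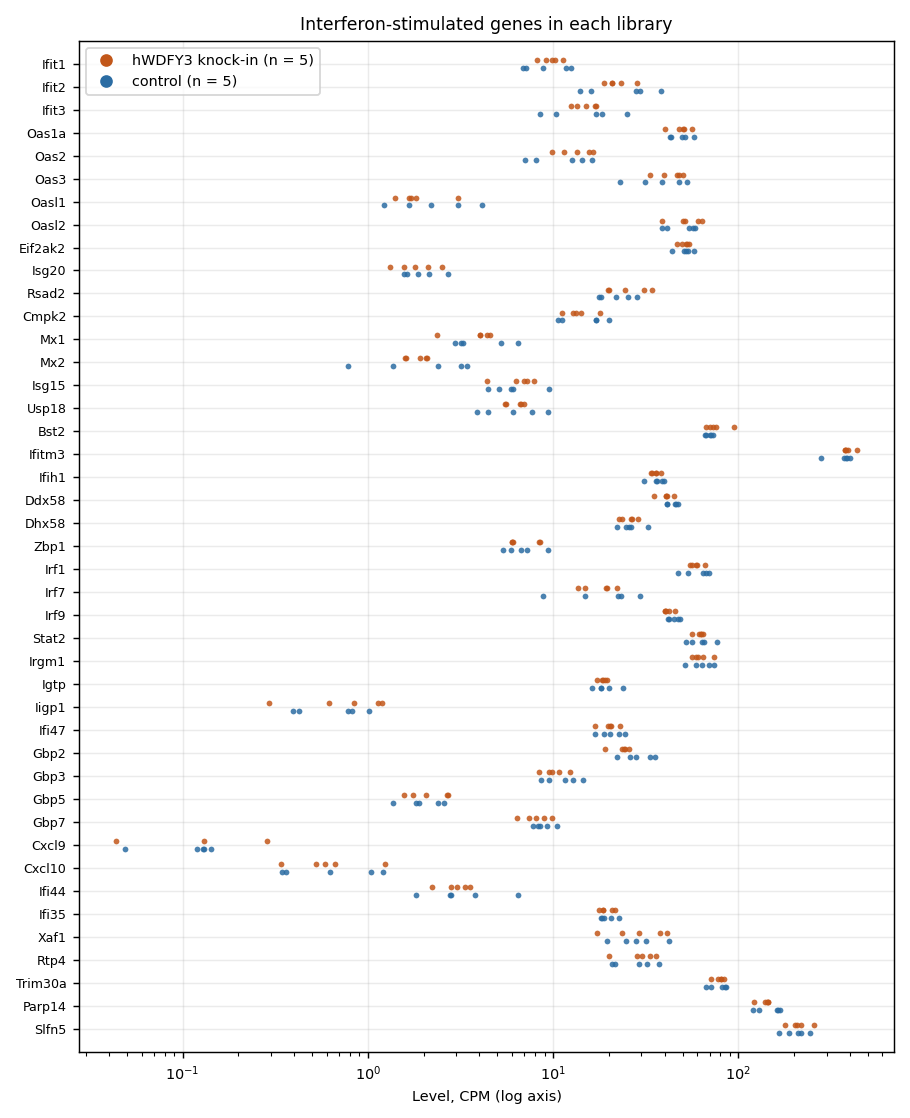
Level of each of the 43 members in every library, in CPM on a log axis, with the 5 hWDFY3 knock-in libraries above the 5 control libraries in each row (points at 0 are not drawn). Levels run from at most 0.287 CPM for Cxcl9 to between 281 and 439.5 CPM for Ifitm3, and the groups overlap in each row.

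Per kilobase of annotated exon, which allows levels to be compared between genes, Ifitm3 was highest at 559 CPM per kb over all 10 libraries. It was followed by Bst2 at 80.7, Slfn5 at 33.03, Oas1a at 26.03, Trim30a at 19.1, Parp14 at 15.4 and Irf1 at 15.04 CPM per kb. The lowest were Cxcl9 at 0.0342, Iigp1 at 0.129, Cxcl10 at 0.308 and Gbp5 at 0.313 CPM per kb. The chemokines and both of these GTPases were thus scarce in cultures to which no interferon is labelled as added. Of 21 interferon genes in the table, 19 had 0 counts in all 10 libraries. For counting error only, a count of 0 allows up to 0.131 to 0.197 CPM in a knock-in and 0.0824 to 0.205 CPM in a control library. These limits use the library totals before scaling, so they are only roughly on the scale of the other CPM values. Ifnb1, interferon beta, had 2 counts over the knock-in libraries and 1 over the control libraries, and Ifnz had 1 in each group.

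The membrane restriction factors were the 2 members with the highest level per kilobase. Ifitm3 (chromosome 7, 141009586 to 141010770, GRCm38), which blocks the fusion of viruses with endosomes, was at 375, 439, 391, 381 and 379 CPM in knock-in libraries 1 to 5, against 281, 382, 387, 402 and 371 CPM in control libraries 1 to 5. Knock-in 2 was the highest library and control 1 the lowest, and the others lay close together. The means were 393 ± 26.5 CPM in the knock-in and 364 ± 48.1 CPM in the control libraries, and the log2 fold change did not pass the test (log2 fold change 0.11 ± 0.089, adjusted p = 0.864). Bst2 (chromosome 8, 71534255 to 71537456), known as tetherin because it holds budding virions on the cell, was at 72.8, 76.2, 66.7, 94.9 and 70.7 CPM in knock-in libraries 1 to 5, against 67.2, 70.6, 73.02, 70.9 and 65.8 CPM in control libraries 1 to 5. Knock-in 4, a library with much stromal RNA, stood above the rest, and without the 3 such libraries the log2 fold change was 0.035, against 0.13 ± 0.083 with them (adjusted p = 0.841). Both fitted values were above 0 and 0 of the 2 passed. Counts of Ifitm3 are uncertain, since 356 of 678 bases of its transcript match Gm6885 at 91.6% identity.

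The 14 effectors grouped as RNA-binding, RNA-degrading and nucleotide effectors had 6 members above 0 and 8 below, with a median log2 fold change of -0.044. Oas1a (chromosome 5, 120896256 to 120907521), which makes the 2-5A messenger that activates RNase L, was at 50.1, 56.5, 40.3, 51.2 and 47.6 CPM in knock-in libraries 1 to 5, against 43.1, 51.3, 57.9, 42.8 and 49.8 CPM in control libraries 1 to 5. The groups covered the same range, with means of 49.1 ± 5.91 CPM in the knock-in and 48.99 ± 6.30 CPM in the control libraries (log2 fold change 0.005 ± 0.099, adjusted p = 0.998). Reads of Oas1a are uncertain, because 1861 of 1885 bases of its transcript match Oas1g at 97.6% identity. Rsad2 (chromosome 12, 26442746 to 26456452) encodes viperin, which makes a chain-terminating nucleotide, and had the smallest p among the effectors. It was at 19.9, 19.9, 24.4, 31.1 and 34.1 CPM in knock-in libraries 1 to 5, against 18.04, 25.5, 28.5, 17.8 and 21.8 CPM in control libraries 1 to 5. Knock-in 4 and 5 were the highest libraries, but the other knock-in libraries lay within the control range (log2 fold change 0.22 ± 0.19, adjusted p = 0.880).

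Ifit2 (chromosome 19, 34550694 to 34576419), one of the IFIT proteins that bind foreign RNA, was chosen for its spread after its values were seen. It was at 20.9, 18.9, 20.9, 23.4 and 28.5 CPM in knock-in libraries 1 to 5, against 14.02, 29.5, 38.2, 15.99 and 28.1 CPM in control libraries 1 to 5. The control libraries fell into a low pair, controls 1 and 4, and a high trio, controls 2, 3 and 5, and knock-in 1 to 4 lay between them, with knock-in 5 level with control 5. The means were 22.5 ± 3.71 CPM in the knock-in and 25.2 ± 10.1 CPM in the control libraries, and the difference was smaller than the SD of either group (log2 fold change -0.15 ± 0.27, adjusted p = 0.943). Mx2 and Oasl1 were also named after their values were seen. Mx2, of a family of dynamin-like GTPases, is annotated in GENCODE M21 as a polymorphic pseudogene, and whether it encodes a working protein here was not tested. Its level was 1.90, 2.08, 1.61, 1.59 and 2.05 CPM in knock-in libraries 1 to 5, against 0.784, 3.44, 3.18, 1.36 and 2.40 CPM in control libraries 1 to 5. Oasl1, a relative of the OAS enzymes that in mice restrains translation of Irf7, was at 1.71, 1.82, 1.40, 3.07 and 1.67 CPM in knock-in libraries 1 to 5, against 1.23, 2.19, 4.14, 1.67 and 3.05 CPM in control libraries 1 to 5. Both again had controls 1 and 4 below the other controls. The neighbouring Ifit3 cannot be fully told from Ifit3b (97.8% identity over 1700 of 1745 bases), nor Mx2 from Mx1 over 921 of 2476 bases (94.8% identity).

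Isg15, a ubiquitin-like protein that is joined to newly made proteins, and Usp18, the protease that removes it and also damps the type I receptor, formed the modifier pair. Isg15 (chromosome 4, 156199424 to 156200818) was at 6.29, 7.22, 4.41, 7.89 and 6.98 CPM in knock-in libraries 1 to 5, against 4.46, 5.93, 9.47, 5.10 and 6.11 CPM in control libraries 1 to 5. Usp18 (chromosome 6, 121245906 to 121270917) was at 6.97, 6.70, 5.59, 6.61 and 5.50 CPM in knock-in libraries 1 to 5, against 3.87, 6.06, 9.35, 4.45 and 7.67 CPM in control libraries 1 to 5. In both genes control 3 was the highest of all libraries, controls 1 and 4 were the lowest controls, and the knock-in libraries fell inside the control range except knock-in 3 for Isg15, at 4.41 CPM just under control 1. The transcript of Isg15 matches AC151275.1 over 482 of 756 bases at 95.2% identity, so its counts are uncertain too. The log2 fold changes were 0.082 ± 0.20 for Isg15 and 0.0091 ± 0.21 for Usp18 (adjusted p 0.962 and 0.998 in edgeR).

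Of the 4 sensors, 3 were below 0 and 1 above, with a median of -0.033. Ddx58 (chromosome 4, 40203773 to 40239828) encodes RIG-I, a sensor of viral RNA ends, and had the smallest p of the sensors. It was at 41.4, 40.95, 35.05, 45.1 and 40.7 CPM in knock-in libraries 1 to 5, against 41.5, 47.2, 45.98, 41.1 and 45.6 CPM in control libraries 1 to 5. The highest control libraries lay above the highest knock-in library, but the groups overlapped, and the interval of 2 SE ran from -0.26 to 0.016 (log2 fold change -0.12 ± 0.069, adjusted p = 0.819). Dhx58 (chromosome 11, 100694884 to 100704271), or LGP2, which tunes the other RNA sensors, was at 26.8, 26.2, 23.4, 28.7 and 22.6 CPM in knock-in libraries 1 to 5, against 22.1, 24.7, 32.5, 26.2 and 25.7 CPM in control libraries 1 to 5. Control 3 was again the highest library, and Dhx58os overlaps it on the other strand (log2 fold change -0.036 ± 0.099, adjusted p = 0.965). Ifih1, the sensor of long double-stranded RNA also called MDA5, had an SD of log2 CPM of 0.073 in the knock-in and 0.14 in the control libraries and was thereby among the steadiest members.

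All 4 transcription factors had fitted values below 0 (median -0.066) and 0 passed. Irf1 (chromosome 11, 53770014 to 53778374), the factor most tied to interferon gamma, was at 65.96, 59.3, 59.7, 54.8 and 56.1 CPM in knock-in libraries 1 to 5, against 47.1, 66.98, 69.8, 53.7 and 64.5 CPM in control libraries 1 to 5. The knock-in libraries lay inside the control range (log2 fold change -0.028 ± 0.10, adjusted p = 0.980). Irf9 (chromosome 14, 55603571 to 55610030), the DNA-binding part of ISGF3, was at 40.1, 45.6, 40.3, 42.4 and 40.8 CPM in knock-in libraries 1 to 5, against 42.5, 47.03, 48.7, 41.8 and 44.8 CPM in control libraries 1 to 5. Knock-in 1, 3 and 5 lay below the lowest control, while knock-in 2 and 4 lay among the controls (log2 fold change -0.10 ± 0.059, adjusted p = 0.819). Irf7 (chromosome 7, 141262706 to 141266481), the factor that amplifies the interferon response, was named after its values were seen and was at 14.9, 19.5, 13.7, 22.03 and 19.4 CPM in knock-in libraries 1 to 5, against 8.87, 22.3, 29.6, 14.8 and 23.1 CPM in control libraries 1 to 5. Control 1 was lowest and control 3 highest, and the fold between the highest and lowest library was 3.34 (log2 fold change -0.13 ± 0.29, adjusted p = 0.957).

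The interferon-inducible GTPases, which coat and break the vacuoles of pathogens, had 6 of 8 members below 0 (median -0.047). Gbp2 (chromosome 3, 142620602 to 142638008), a guanylate-binding protein, was at 25.7, 24.6, 23.7, 24.2 and 18.97 CPM in knock-in libraries 1 to 5, against 22.2, 33.4, 35.7, 26.1 and 27.9 CPM in control libraries 1 to 5. All 5 knock-in libraries were below 26 CPM, while 4 controls were above 26 CPM, and control 1 lay among the knock-in libraries. The means were 23.4 ± 2.59 CPM in the knock-in and 29.05 ± 5.51 CPM in the control libraries, with a log2 fold change of -0.31 ± 0.13, an unadjusted p of 0.0297 and an adjusted p of 0.744 in edgeR. On the deposited log2 scale the means were 8.98 ± 0.085 in the knock-in and 9.12 ± 0.17 in the control libraries (SD, n = 5 each). Irgm1 (chromosome 11, 48861968 to 48871683), a regulator of the other immunity-related GTPases, was at 56.01, 58.8, 60.6, 64.8 and 74.4 CPM in knock-in libraries 1 to 5, against 59.1, 73.5, 69.4, 51.8 and 63.95 CPM in control libraries 1 to 5, and the groups covered nearly the same range (log2 fold change -0.013 ± 0.099, adjusted p = 0.991).

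The chemokines were near the limit of detection. Cxcl10, which draws T cells and natural killer cells, had 7, 9, 12, 13 and 26 counts in knock-in libraries 1 to 5 and 7, 28, 6, 22 and 16 counts in control libraries 1 to 5. Its means were 0.672 ± 0.341 CPM in the knock-in and 0.714 ± 0.393 CPM in the control libraries (log2 fold change -0.083 ± 0.42, adjusted p = 0.985), and the interval of 2 SE was wide, from -0.93 to 0.76. Cxcl9, a ligand of the same receptor, had 9 counts over all knock-in and 13 over all control libraries and was not tested.

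Of the 7 other members, 4 were above 0 and 3 below. Slfn5 (chromosome 11, 82951349 to 82964840), of the Schlafen family, was at 202, 209, 178, 255 and 217 CPM in knock-in libraries 1 to 5, against 245, 210.4, 189, 167 and 218 CPM in control libraries 1 to 5. Knock-in 4 and control 1 were the highest of their groups (log2 fold change 0.045 ± 0.11, adjusted p = 0.959). Parp14 (chromosome 16, 35832874 to 35871544), a mono-ADP-ribosyltransferase, was at 144, 144, 122, 139.6 and 143 CPM in knock-in libraries 1 to 5, against 129.8, 161, 168, 120.3 and 163 CPM in control libraries 1 to 5. Controls 2, 3 and 5 lay above 160 CPM, and every other library lay below 145 CPM (log2 fold change -0.099 ± 0.094, adjusted p = 0.891). The remaining 5 members, Ifi44, Ifi35, Xaf1, Rtp4 and Trim30a, had log2 fold changes from -0.23 to 0.08. Trim30a, which in mice limits inflammatory signalling, shares 1719 of 3771 transcript bases with Trim30d at 90.1% identity.

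Within a genotype, most members varied more between mice than the median gene did. The SD of log2 CPM within a genotype was above the median of all tested genes for 35 of 42 members (50% of all genes by construction), and for 9 members it was in the top 10.0% of all tested genes, with Cxcl10, Iigp1, Mx2, Oasl1 and Irf7 leading. Of these leaders, Cxcl10, Iigp1, Mx2 and Oasl1 had only 6 to 80 counts per library, where counting error adds to the SD. The percentiles were not matched for level. The median SD was 0.20 in the knock-in and 0.30 in the control libraries for the members, and 0.12 and 0.16 for all tested genes. The SD was larger in the controls for 34 of 42 members, against 66.1% of all tested genes. The steadiest members were Irf9, Ddx58, Ifih1 and Eif2ak2, the kinase PKR whose SDs lay at percentiles 16.3 to 34.8 of all tested genes. These figures describe the list, and no test was made on them.

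**Figure D2:**
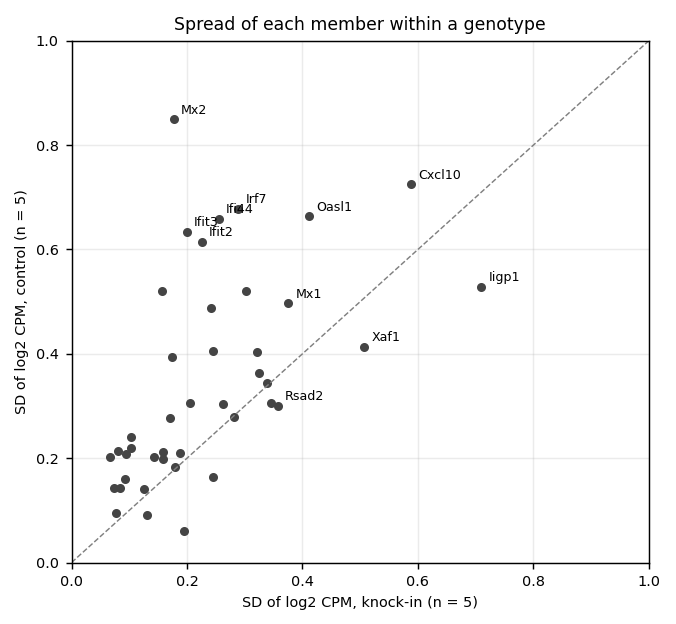
SD of log2 CPM of each of the 42 tested members among the 5 knock-in libraries (x axis) and among the 5 control libraries (y axis), with the line of equal spread dashed. Most points, 34 of 42, lie above the line, and Mx2 is farthest from it at 0.18 in the knock-in and 0.85 in the control libraries.

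The spread among controls followed the same libraries in gene after gene. Control 3 was the highest of all 10 libraries for 25 of 42 members, against 12.1% of all tested genes, while control 1 was the lowest for 17, against 17.5%, and control 4 for 9, against 10.2%. Controls 1 and 4 both lay below controls 2, 3 and 5 for 32 of 42 members, against 15.1% of all tested genes. The order held in 12 of 14 effectors, all 8 GTPases, all 4 transcription factors and both modifier genes, but in 2 of 4 sensors, 4 of 7 other members, 0 of 2 membrane restriction factors and 0 of 1 tested chemokine. The mean log2 CPM of the 42 members was 4.04, 4.18, 3.95, 4.28 and 4.16 in knock-in libraries 1 to 5, against 3.79, 4.29, 4.47, 3.89 and 4.24 in control libraries 1 to 5. Knock-in 1, 2, 3 and 5 thus lay between the low and the high controls, and knock-in 4 overlapped the high ones.

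**Figure D3:**
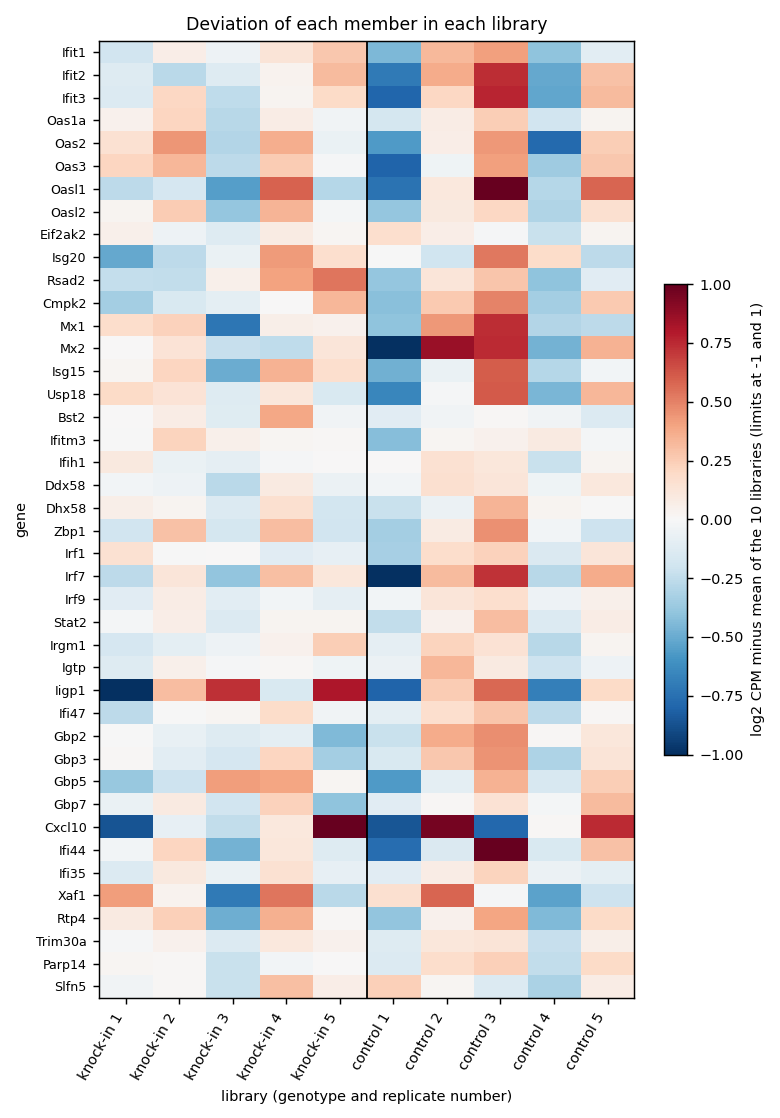
Log2 CPM of each tested member minus its mean over the 10 libraries, with the 5 knock-in libraries left of the line and the 5 controls right of it (red above the mean, blue below, colours capped at -1 and 1). Control 3 is the reddest column, highest of 10 for 25 of 42 members, and controls 1 and 4 are mostly blue.

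Controls 1 and 4 were also the controls with the most stromal and neutrophil RNA. The mean log2 CPM of the 10 tested stromal markers was -1.36, 0.64, 0.87, 3.02 and -2.02 in knock-in libraries 1 to 5, against 3.70, 0.36, -0.59, 3.55 and -0.27 in control libraries 1 to 5. The 11 neutrophil markers summed to 106, 86.6, 97.8, 221 and 51.9 CPM in knock-in libraries 1 to 5, against 293, 125, 116, 261 and 79.4 CPM in control libraries 1 to 5. Most of each neutrophil sum was the single gene Mmp8, at 48.3 to 254 CPM. Knock-in 4 had the most stromal and neutrophil marker RNA among the knock-in libraries, and its mean of the interferon-stimulated genes was the highest of that group. The 8 markers of plasmacytoid dendritic cells, which make much type I interferon, summed to 51.3 to 56.9 CPM in the knock-in and 46.6 to 54.7 CPM in the control libraries, but 45.1 to 54.7 CPM of any library was Tcf4. The other markers were scarce, and the groups overlapped for each. Siglech was at 0.478 to 1.43 CPM in the knock-in and 0.0860 to 0.567 CPM in the control libraries. Ccr9 was at 0.536 to 1.79 CPM in the knock-in and 0.0980 to 0.907 CPM in the control libraries, and Cox6a2 at 0.287 to 0.615 CPM in the knock-in and 0.0650 to 0.294 CPM in the control libraries. In the same order, Spib was at 0.478 to 1.18 and 0.245 to 0.992 CPM, and Pacsin1 at 0.0975 to 0.717 and 0.0650 to 0.480 CPM. Ly6d, at 0.0956 to 0.349 and 0.0980 to 0.420 CPM, and Klk1, at 0 to 0.154 and 0 to 0.180 CPM, reached higher in the control libraries. Several of these values lie near the limits given above for a count of 0. Of the 4 markers in this list with enough counts to test, 0 passed after adjustment in edgeR. The part of stromal, neutrophil or plasmacytoid dendritic cell RNA in the pattern was not tested.

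**Figure D4:**
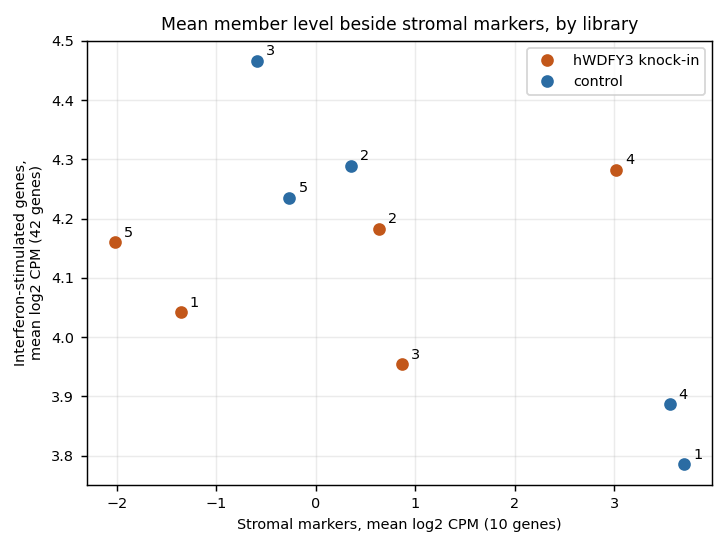
Mean log2 CPM of the 42 tested members (y axis) beside that of the 10 tested stromal markers (x axis), 1 point per library with its replicate number. The 3 stroma-rich libraries lie at the right, where knock-in 4 has a member mean of 4.28 and controls 1 and 4 have the lowest, 3.79 and 3.89.

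The direction of the list depended on which libraries entered the fit. Controls 1 and 4 had the lowest member means of all libraries (3.79 and 3.89), so leaving them out by itself moves most fitted values down. Many members also rose and fell together across libraries, so the counts of members below are not counts of separate results. Without knock-in 4 and controls 1 and 4, 39 of 42 members had a fitted value below 0 in the remaining 4 knock-in and 3 control libraries, against 50.2% of all tested genes. The median log2 fold change was -0.20 over the members and -0.00073 over all genes. An unadjusted p under 0.05 was found for 13 members, all of them lower in the knock-in, against 3.23% of all genes lower at that p, while 0 members passed after adjustment, against 0.304% of all genes (smallest adjusted p = 0.194, Gbp2, edgeR). The 3 exceptions in sign were Bst2, Ifitm3 and Iigp1. Leaving out only controls 1 and 4 gave 38 of 42 below 0 (51.0% of all genes) with a median of -0.15, and 12 members lower at an unadjusted p under 0.05 (3.11% of all genes). Leaving out control 3 as well as the 3 stroma-rich libraries gave 36 of 42 below 0 (50% of all genes) with a median of -0.14, and 8 members lower at that p (4.6% of all genes). By contrast, leaving out control 3 alone gave 29 of 42 above 0 and 13 below (50.9% of all genes below) with a median of 0.050, and 0 members at that p (8.27% of all genes). In these 3 fits 0 members passed after adjustment in edgeR, against 0.191%, 0.165% and 0.0874% of all genes. With the stromal score as a covariate over all 10 libraries, 29 of 42 were below 0 (51.3% of all genes) with a median of -0.056, 1 member had an unadjusted p under 0.05 (6.3% of all genes) and 0 passed (0.0806% of all genes).

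The 13 members with an unadjusted p under 0.05 in the 7 stroma-poor libraries included the GTPases Gbp2 and Gbp3, the factor Irf7 and the effectors Oasl1 and Mx2. Gbp2 averaged 23.2 ± 2.95 CPM in the 4 knock-in libraries and 32.3 ± 4.03 CPM in the 3 controls (log2 -0.48 ± 0.11). Irf7 averaged 16.9 ± 3.02 CPM in these knock-in libraries and 25.02 ± 4.00 CPM in these controls (log2 -0.57 ± 0.15, adjusted p = 0.318 in edgeR). Gbp3, named after its values were seen, averaged 9.62 ± 0.962 CPM in these knock-in libraries and 12.98 ± 1.44 CPM in these controls (log2 -0.43 ± 0.11, adjusted p = 0.267 in edgeR). Oasl1 and Mx2 had log2 fold changes of -0.92 ± 0.24 and -0.66 ± 0.21. For 8 of 42 members all 4 of these knock-in libraries lay below all 3 controls, against 3.68% of all tested genes. This too leaves out controls 1 and 4, the low controls for most members.

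**Figure D5:**
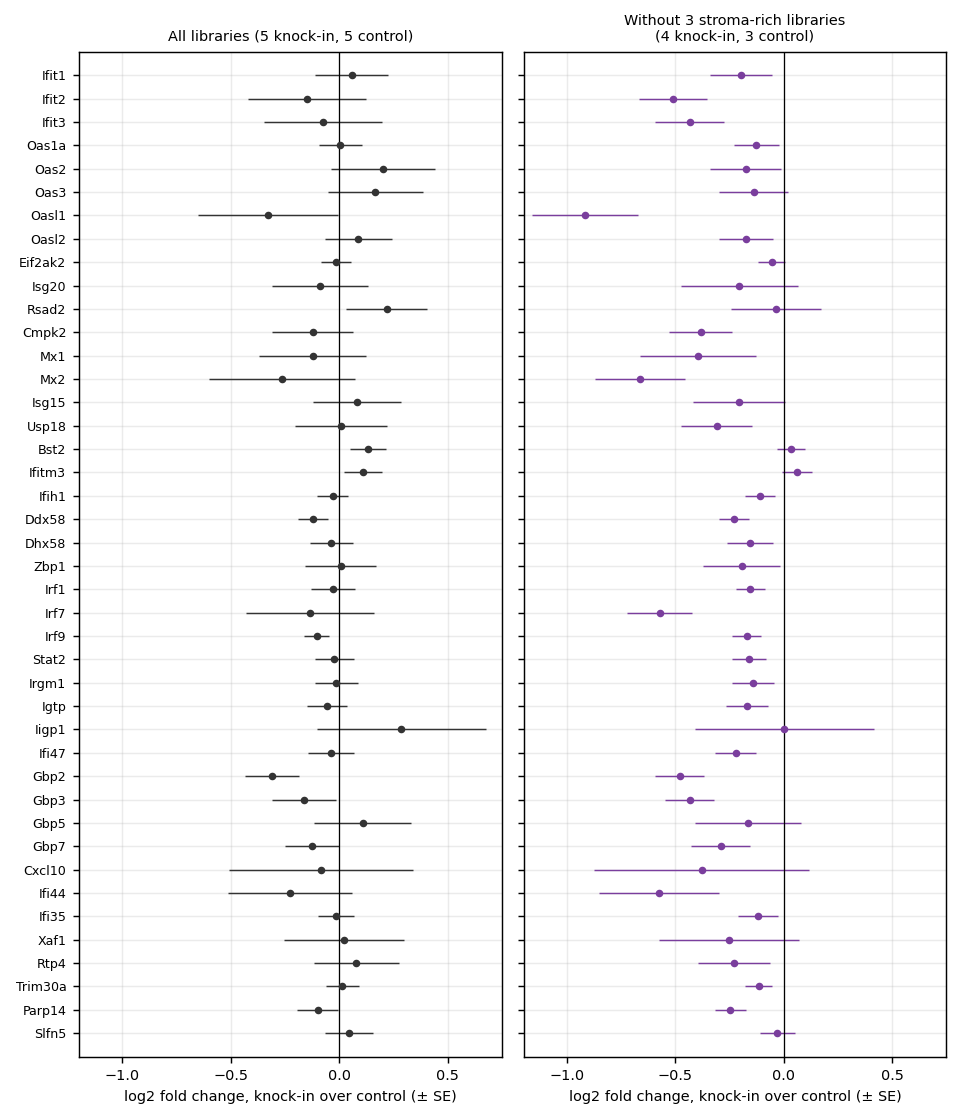
Fitted log2 fold change of knock-in over control (points) ± SE (bars) for the 42 tested members, in all 10 libraries on the left and without the 3 stroma-rich libraries on the right. On the left 25 members are below 0 and on the right 39, and 0 members passed after adjustment in either fit.

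None of the other pathway genes passed the test in all 10 libraries either. Of 115 tested genes for interferon induction, reception, signalling, restraint and other interferon-stimulated genes, 0 passed in edgeR (0.0806% of all tested genes) and 6 had an unadjusted p under 0.05 (6.21% of all tested genes). Fitted values were above 0 for 50 and below for 65 (median -0.017), with 48.3% of all tested genes above 0. DESeq2 also called 0, with 7 of 127 at an unadjusted p under 0.05, against 3.75% of the genes it fitted. The receptor subunits of both interferon types were well expressed. Ifnar1 was at 124, 117, 195, 156 and 116 CPM in knock-in libraries 1 to 5, against 161, 208, 200.3, 159 and 151 CPM in control libraries 1 to 5. Knock-in 1, 2 and 5 were below all controls, while knock-in 3 and 4 were not (log2 fold change -0.31 ± 0.16, adjusted p = 0.810). Ifnar2 had means of 94.8 ± 4.69 CPM in the knock-in and 102 ± 8.96 CPM in the control libraries (log2 fold change -0.10 ± 0.064, adjusted p = 0.841), Ifngr1 of 133 ± 26.2 CPM in the knock-in and 154 ± 15.8 CPM in the control libraries (log2 fold change -0.21 ± 0.12, adjusted p = 0.819) and Ifngr2 of 140.2 ± 2.72 CPM in the knock-in and 144 ± 10.2 CPM in the control libraries (log2 fold change -0.036 ± 0.055, adjusted p = 0.932).

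No difference was resolved for the kinases, with Jak1 at 247 ± 9.33 CPM in the knock-in and 248 ± 12.6 CPM in the control libraries and Tyk2 at 66.4 ± 0.969 CPM in the knock-in and 63.6 ± 7.72 CPM in the control libraries (adjusted p 0.987 and 0.906 in edgeR). Irf8, a lineage factor of macrophages, had means of 195 ± 10.00 CPM in the knock-in and 192 ± 12.1 CPM in the control libraries (log2 fold change 0.022 ± 0.058, adjusted p = 0.963). Among the genes that induce interferon, Tlr3, the endosomal receptor of double-stranded RNA, had the smallest p of the whole pathway, at 14.5, 17.7, 16.8, 17.2 and 15.96 CPM in knock-in libraries 1 to 5, against 12.8, 13.5, 15.05, 10.9 and 13.5 CPM in control libraries 1 to 5. Knock-in 1 lay within the control range, and the difference did not pass (log2 fold change 0.32 ± 0.091, adjusted p = 0.548). Tmem173, which encodes STING, was at 48.4 ± 3.14 CPM in the knock-in and 55.1 ± 4.99 CPM in the control libraries (log2 fold change -0.19 ± 0.069, adjusted p = 0.700).

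Of the negative regulators, Socs3, which blocks JAK kinases, was at 0.536, 1.10, 0.873, 2.31 and 0.573 CPM in knock-in libraries 1 to 5, against 3.68, 0.946, 1.26, 3.40 and 0.845 CPM in control libraries 1 to 5. It was highest in knock-in 4 and controls 1 and 4, the stroma-rich libraries (log2 fold change -0.94 ± 0.53, adjusted p = 0.819). Ptpn2, a phosphatase that acts on JAK1, had means of 17.4 ± 1.06 CPM in the knock-in and 19.1 ± 1.82 CPM in the control libraries (log2 fold change -0.13 ± 0.077, adjusted p = 0.819). Of 82 further interferon-stimulated genes, B2m, the light chain of MHC class I, was at 2196 ± 66.3 CPM in the knock-in and 2455 ± 205 CPM in the control libraries (log2 fold change -0.16 ± 0.062, adjusted p = 0.722), and Dtx3l, a ubiquitin ligase that partners Parp9, was at 52.7 ± 2.84 CPM in the knock-in and 46.99 ± 3.67 CPM in the control libraries (log2 fold change 0.17 ± 0.063, adjusted p = 0.706). Psme2, a subunit of the proteasome activator PA28, was the 1 of 115 pathway genes whose groups did not overlap, which is no larger a share than the 1.32% of all tested genes. It was at 96.4, 98.3, 98.8, 95.6 and 93.9 CPM in knock-in libraries 1 to 5, against 103, 109, 104, 100.0 and 103 CPM in control libraries 1 to 5 (log2 fold change -0.10 ± 0.044, adjusted p = 0.748), and it was named after its values were seen.

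Of the 82 further interferon-stimulated genes, 40 had controls 1 and 4 both below controls 2, 3 and 5, against 15.1% of all tested genes. Leaving these controls out thus lowers fitted values here too. In the 7 stroma-poor libraries, 67 of 81 of these further interferon-stimulated genes were below 0 (median -0.11), against 50.2% of all genes in that fit, and 22 had an unadjusted p under 0.05, all lower in the knock-in, against 3.23% of all genes. Herc6, the main ligase of ISG15 in mice, was the 1 of 114 pathway genes that passed after adjustment there, against 0.304% of all genes, and it was named after its values were seen. The pathway had 0 such calls when only controls 1 and 4 were left out, and 0 when control 3 was left out with the 3 stroma-rich libraries. It averaged 21.6 ± 1.17 CPM in the 4 knock-in libraries and 28.7 ± 0.660 CPM in the 3 controls (log2 -0.42 ± 0.071, adjusted p = 0.0411 in edgeR). Over all 10 libraries Herc6 was at 21.7, 21.9, 19.9, 28.5 and 22.7 CPM in knock-in libraries 1 to 5, against 26.6, 28.4, 28.4, 22.5 and 29.5 CPM in control libraries 1 to 5, where knock-in 4 matched the high controls and control 4 the other knock-in libraries (log2 fold change -0.24 ± 0.1, adjusted p = 0.770).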

How the data were processed

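Strand-specific poly(A)+ RNA libraries of 10 BMDM cultures, 5 hWDFY3KI/KI and 5 control, were sequenced, per the labels' protocols. The deposited table of estimated counts per gene and the authors' deposited table of log2 expression values were used. Per the submitters' processing notes, Salmon 1.6.0, MultiQC and DESeq2 1.34.0 were run, with builds GRCm39 and mm10 named without their roles. The sources used here do not say how transcripts were summed to genes or whether strand was used.

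The estimated counts were made whole by rounding. Genes were filtered with filterByExpr, scaled by TMM and tested with edgeR 4.0.16 (quasi-likelihood F test, robust, R 4.3.3), and p-values were adjusted by Benjamini-Hochberg over 12411 genes at 0.05. CPM is relative to the TMM-scaled library size. A prior count of 2 was added for log2 CPM. The SE is the log2 fold change divided by the square root of F. The p-values measure the spread between libraries labelled as separate replicates. No 2 libraries of a group were copies (chi-square per gene 8.75 to 54.5 over 20 pairs). The fitting script was tested on simulated data.

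Coordinates and exon lengths are from GENCODE M21 (GRCm38), matched by gene ID, and promoters from RefSeq (GRCm38.p6). Genes described in detail were taken by rule, by level per kilobase and by p within each role. Ifit2, Irf7, Oasl1, Gbp3, Mx2, Usp18, Herc6 and Psme2 were added after their values were seen. For the pathway, 1 gene that the rule takes is not reported here. The members and lists were chosen with earlier results of these data known. Alternatives were DESeq2 1.42.0, limma 3.58.1 (voom, and trend on the deposited log2 values), other scaling and filters, a replicate block, a stromal covariate and leaving out libraries.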

Additional observations from a re-analysis of the deposited data

Results flagged for a closer look

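In 7 of 114 groups of 5 libraries, 1 library stood far from the other 4 by Dixon's test, and chance gives about 5% of groups. For Oasl1, knock-in 4 was at 3.075 CPM and the other knock-in libraries at 1.397 to 1.82 CPM. For Mx1, knock-in 3 was at 2.357 CPM and the others at 4.014 to 4.55 CPM. For Ifitm3, knock-in 2 was at 439.5 CPM and the others at 375.2 to 391.2 CPM, and control 1 was at 280.8 CPM and the other controls at 370.7 to 402.1 CPM. For Parp14, knock-in 3 was at 122.1 CPM and the others at 139.6 to 144.3 CPM. For Cxcl9, control 1 was at 0.04902 CPM and the other controls at 0.1199 to 0.1418 CPM, a matter of 1 to 5 counts. For Ifnar2, control 1 was at 117.6 CPM and the other controls at 96.58 to 100.8 CPM.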

How the results depend on the processing

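No member passed after adjustment under any setting run. The count of all genes called was 10, and 48 with DESeq2, 24 without controls 1 and 4, 38 without the 3 stroma-rich libraries, 21 without these and control 3, and 6 to 23 when 1 library was left out. Members above 0 numbered 17, and 4 without controls 1 and 4, 3 without the 3 stroma-rich libraries, 6 without these and control 3, and 9 (without control 4) to 29 (without control 3) when 1 library was left out. The pathway had 0 calls, and 1 without the 3 stroma-rich libraries. The stromal settings that leave libraries out together were chosen after seeing the data, except for leaving out the 3 stroma-rich libraries.
No consistent pairing by replicate number was seen in the expression values. Deviations from the group means had correlations of -0.20, 0.027, 0.039, 0.51 and 0.25 between same-numbered libraries, and 2 of 5 matched their own number best. Knock-in 4 and control 4, the pair at 0.51, are both stroma-rich. Whether mice were paired by litter or day cannot be told from these correlations. With a replicate block, 12 genes (0.0967%) and 0 members were called, and 18 members were above 0 (median -0.012).
Of the 42 members, 14 turned sign without the 3 stroma-rich libraries, 13 without controls 1 and 4, 13 without the 3 and control 3, 4 with the stromal covariate, 7 on the deposited log2 values and 3 to 12 when 1 library was left out. Values are given for the genes described in detail alone, both members and the pathway genes Ifngr2, Irf8, Jak1 and Socs3, which are not in the counts of members. Without the 3 stroma-rich libraries, those that turned were Irf8 (-0.00064), Isg15 (-0.21), Jak1 (0.029), Oas1a (-0.13), Rsad2 (-0.037), Slfn5 (-0.030) and Usp18 (-0.31). Without controls 1 and 4 they were Isg15 (-0.13), Jak1 (0.026), Oas1a (-0.11), Socs3 (0.077) and Usp18 (-0.29). Without the 3 and control 3 they were Oas1a (-0.062), Slfn5 (-0.089) and Usp18 (-0.15). With the stromal covariate they were Jak1 (0.00011), Oas1a (-0.032) and Usp18 (-0.071), and on the deposited log2 values Ifngr2 (0.0075), Irgm1 (0.010) and Jak1 (0.015). With 1 library left out, the ranges of these genes that crossed 0 were -0.43 to 0.20 (Cxcl10), -0.089 to 0.051 (Dhx58), -0.060 to 0.0078 (Ifngr2), -0.10 to 0.029 (Irf1), -0.0088 to 0.048 (Irf8), -0.080 to 0.046 (Irgm1), -0.013 to 0.28 (Isg15), -0.034 to 0.014 (Jak1), -0.049 to 0.071 (Oas1a), -0.032 to 0.12 (Slfn5), -0.29 to 0.049 (Ifit2), -0.32 to 0.054 (Irf7) and -0.12 to 0.19 (Usp18). The cause was not tested. With 5 mice per group and this spread, differences of the size fitted here were mostly within 2 SE of 0.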
